A study of Homo sapiens with 8 samples.

Results

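The genes described here are the integrin chains, the laminin chains and 4 other matrix or adhesion genes, namely fibronectin (FN1), vitronectin (VTN), tenascin-C (TNC) and the adhesion molecule ALCAM. They were chosen by gene symbol, with earlier results of these data known. Of the 18787 symbols in the deposited table, 42 belong to the set: 18 integrin alpha chains, 8 integrin beta chains, 12 laminin chains and these 4. Expression was measured by RNA sequencing in T98 and U87, which are established human glioblastoma cell lines grown in serum-containing medium. Cells were collected 72 h after Lipofectamine RNAiMAX transfection with either a control siRNA or an siRNA directed at LKB1, the kinase encoded by STK11. The 4 groups were therefore T98 with control siRNA, T98 with LKB1 siRNA, U87 with control siRNA and U87 with LKB1 siRNA, each of 2 libraries, and every group received transfection reagent and an siRNA. The labels call the cells duplicated without saying whether the duplicates were separate transfections, so a p-value here reflects the spread among these particular libraries, and that spread may be technical.

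Integrins are cell surface receptors made of 1 alpha and 1 beta chain, and the pairing sets which matrix protein the receptor binds. Laminins are basement membrane trimers of an alpha, a beta and a gamma chain, while fibronectin, vitronectin and tenascin-C are matrix glycoproteins that integrins recognise. In glioblastoma, these receptors and ligands are known for their part in attachment to, and migration along, vessels and brain matrix.

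Library sizes recovered from the deposited values ranged from 25234334 to 38031734 reads. Each line had a control and an LKB1 siRNA library on sequencing lane 2 and a further pair on another lane, which was lane 4 in T98 and lane 5 in U87. Libraries are named by lane below, and knockdown effects compare libraries of the same lane. Whether a difference between lanes came from sequencing or from something else shared by a pair of libraries was not tested. Of 8 glial markers, 5 reached a value of 10 in at least 2 libraries, and not all of the 8 are named here. VIM was high in every library (34020.5 to 292296 normalised counts), GFAP lay between 1.85 and 50.7, and S100B, SOX2 and AQP4 were under 10 in all 8 libraries. In bulk RNA, fewer cells expressing a gene and less RNA per cell cannot be told apart.

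STK11 transcript was reduced in both lines. In T98 it measured 1999 with control and 339.9 with LKB1 siRNA on lane 2, and 2041 and 588 on lane 4. In U87 it measured 2445 and 361 on lane 2, and 2041 and 385 on lane 5. The groups did not overlap, and STK11 fell by 2.17 on the log2 scale in T98 (SE 0.20, adjusted p = 0.00254) and by 2.58 in U87 (SE 0.20, adjusted p = 0.00195). Without the lane term STK11 passed in U87 (adjusted p = 0.0466) and not in T98 (adjusted p = 0.0824). With the lane term, the T98 call was lost without the U87 lane 2 control or LKB1 library, and the U87 call without any 1 U87 library (adjusted p up to 0.11 and 0.353).

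Of the 42 genes, 39 reached a value of 10 in at least 2 libraries and were tested among 14282 genes. The integrin chains ITGA9 (1 to 8 reads per library) and ITGB6 (1 to 10 reads) and the laminin chain LAMC3 (0 to 7 reads) were not tested. A gene was called at an adjusted p under 0.05 by limma-trend with a lane term, on log2 of the value plus 1, a scale that understates the change of genes with low values. In T98, LKB1 siRNA left 8 of the 39 higher (20.51%, against 8.48% of all genes tested) and 2 lower (5.13% against 7.33%), while voom on recovered reads called 6 higher and 5 lower. In U87, 11 were higher (28.21% against 5.29%) and 0 lower, where 5.91% of all genes were lower, and voom on recovered reads called 13 higher and 0 lower. At an unadjusted p under 0.05 in the limma-trend fit there were 19 of the 39 in T98 and 16 in U87. The shares of all genes at that threshold are not given here. The median log2 effect was 0.11 in T98, against 0.02 over all genes, and 0.29 in U87, against −0.00. Both LKB1 libraries lay above both controls for 7 genes in T98 (20.5% of all genes tested did so) and below for 5 (20.5%), and in U87 above for 12 (17.6%) and below for 2 (20.2%). Fibroblast and mesenchymal markers, 6 genes in all, summed to 28696 to 34599 in T98 controls and 50274 to 68719 with LKB1 siRNA, and to 66183 to 102878 and 94195 to 121973 in U87. The mesenchymal markers did not all go one way in T98, where 2 were called higher and 2 lower. On lanes 2 and 4 of T98, COL1A2 went from 15789 to 41880 and from 17490 to 24217, and THY1 from 4795 to 15880 and from 7045 to 14316. ACTA2 went from 167.6 to 81.2 and from 437.8 to 156.6, and LUM from 29.1 to 13.0 and from 252.8 to 104.6. The 6 endothelial markers summed to 380.2 to 419.2 in U87 controls and 510.3 to 538.5 with LKB1 siRNA, and the 6 epithelial markers to 230.0 to 248.1 and 302.3 to 345.3. In T98 the endothelial sums were 73.95 to 240.5 and 87.25 to 242.5, and the epithelial sums 2603 to 3024 and 2843 to 4260. The endothelial markers did not all go one way in U87, where 0 of 5 tested were called. On lanes 2 and 5 of U87, TEK went from 172.1 to 188.5 and from 165.1 to 245.0. VWF went from 25.45 to 19.2 and from 57.4 to 46.9. Whether these markers bear on the effects below was not tested.

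**Figure D1:**
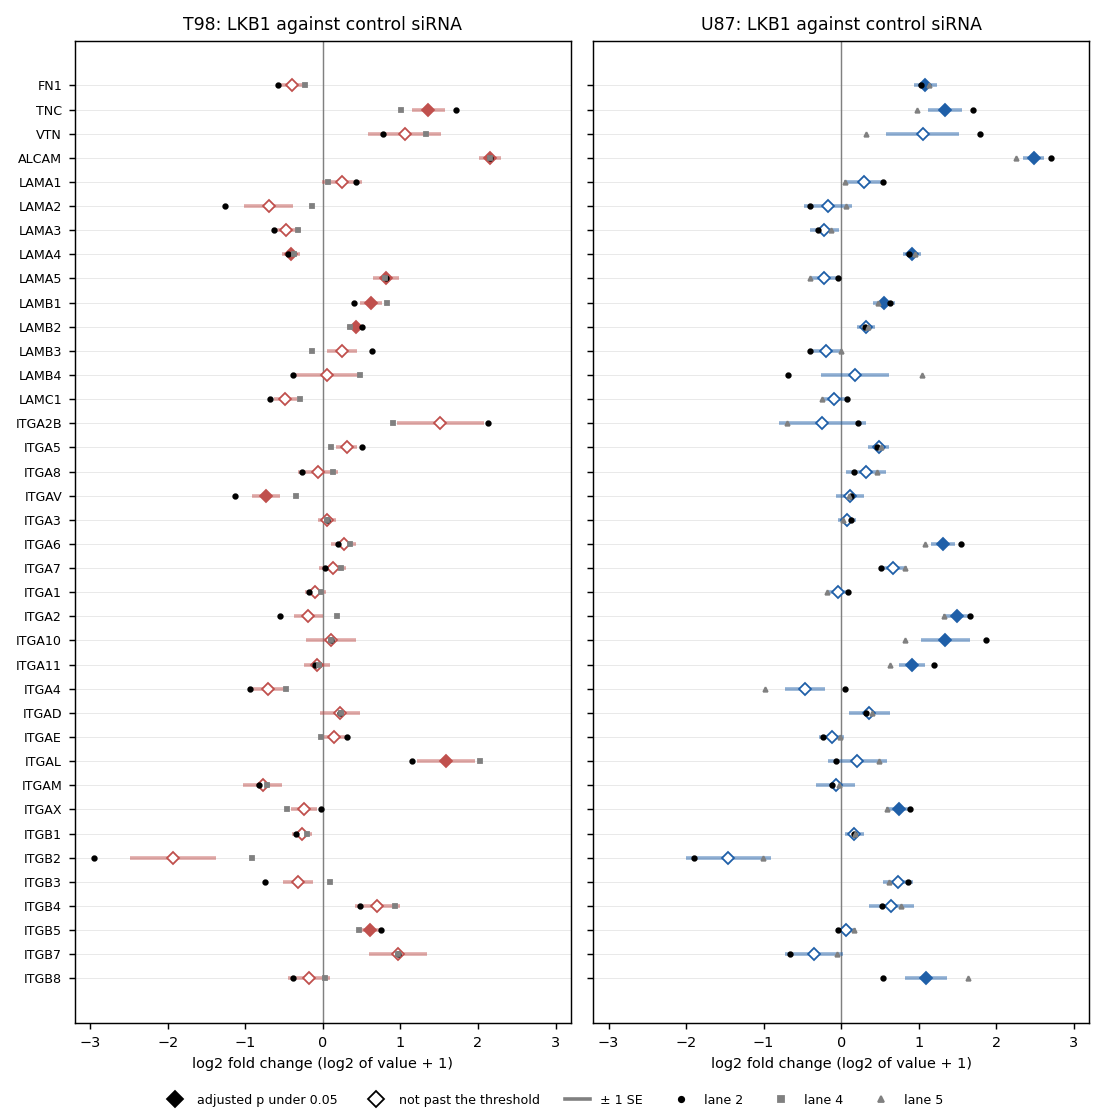
Log2 fold change of LKB1 against control siRNA for 38 of the tested genes in T98 (left) and U87 (right), grouped by role. Diamonds are the fitted effects with bars of 1 SE, filled where the adjusted p is under 0.05, and small symbols are the separate values of each lane. All 11 filled diamonds of U87 lie to the right of 0, and in T98 7 lie to the right and 2 to the left.

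The pair of sequences below shows the start regions of FN1 and TNC, which had the highest values per kilobase in the U87 controls among the laminins and other matrix genes of the set, because FN1 differed in response between the lines and TNC changed by similar amounts in both. Each run spans the RefSeq transcription start on GRCh38.p14, from chr2:215436019-215436318 (FN1) and chr9:115118108-115118407 (TNC), both on the minus strand and written 5′ to 3′. Capitals mark letters of searched motifs, which were the cyclic AMP response element TGACGTCA, the AP-1 site TGACTCA, the CCAAT box named by its letters, and the TATA box searched as TATAA, each on both strands.
FN1: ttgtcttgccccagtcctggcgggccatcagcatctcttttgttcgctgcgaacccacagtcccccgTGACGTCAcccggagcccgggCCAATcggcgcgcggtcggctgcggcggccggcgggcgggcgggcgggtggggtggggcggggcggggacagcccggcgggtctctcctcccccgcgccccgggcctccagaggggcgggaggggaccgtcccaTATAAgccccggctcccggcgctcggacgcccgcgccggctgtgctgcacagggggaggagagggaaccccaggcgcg
TNC: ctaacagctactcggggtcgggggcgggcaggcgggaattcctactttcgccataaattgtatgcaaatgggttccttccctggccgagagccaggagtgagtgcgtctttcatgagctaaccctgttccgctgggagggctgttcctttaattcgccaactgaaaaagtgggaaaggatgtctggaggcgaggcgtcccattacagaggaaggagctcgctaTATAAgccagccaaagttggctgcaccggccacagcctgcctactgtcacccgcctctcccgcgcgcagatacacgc
In FN1 the response element begins 183 bases before the start, CCAAT 162 bases before it and TATAA 28 bases before it, and in TNC the TATAA begins 27 bases before the start. Start regions were held for 30 of the 42 genes, and FN1 was the 1 gene of the 30 with the response element, which 1.85% of 35116 such windows contain. CCAAT was in 34.6%, TATAA in 20.4% and an AP-1 site in 4.95% of the windows. These matches are letters in a window and show no binding.

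ALCAM, an immunoglobulin-family adhesion molecule that binds itself and CD6 on neighbouring cells, rose in both lines. The gene (NM_001627, chr3:105085557-105295757, plus strand, hg19) measured 972 with control and 4319 with LKB1 siRNA on lane 2 of T98, and 2091 and 9287 on lane 4. In U87 it measured 764 and 4988 on lane 2, and 1154 and 5515 on lane 5. All 4 LKB1 libraries lay above all 4 control libraries. The log2 effect was 2.15 in T98 (SE 0.14, adjusted p = 0.00125), with 2.15 on each lane, and 2.48 in U87 (SE 0.14, adjusted p = 0.00195), with 2.70 and 2.26. The difference between the lines was −0.33 (95% interval −0.79 to 0.13, adjusted p = 0.475).

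The 3′ end of ALCAM holds the heptamer GCAGTAC, shown here in capitals within the 29 bases around it, because it was the heptamer whose share differed most between genes called higher in both lines and all others.
ALCAM: taatttatcaaGCAGTACatgaaagtgta
The heptamer begins at base 1104 of the 2449-base 3′ untranslated region in GENCODE on GRCh38. It was present in 27.8% of the 392 genes called higher in both lines and in 4.59% of the other 12885 tested genes. Among 39 genes of the set with such a region, ALCAM was the 1 gene that held it. Of the heptamers next in that ranking, CAGTACA was in ALCAM and FN1, and TGCAGTA in ITGAV and LAMA4. CCCCACC was in 7 genes of the set and CCAGCCC in 9. The lengths of these regions were not compared. Whether GCAGTAC had a part in the ALCAM difference was not tested. Every comparison here sets LKB1 siRNA against control siRNA, whose sequences are not known here, so a gene raised by the one and a gene lowered by the other cannot be told apart.

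Among the matrix ligands, tenascin-C rose in both lines and fibronectin in U87. TNC (NM_002160, chr9:117781854-117880536, minus strand, hg19) encodes a matrix glycoprotein that modulates cell adhesion and is abundant in glioma matrix. On lane 2 of T98 it measured 665 with control and 2184 with LKB1 siRNA, and on lane 4 379.7 and 764. U87 gave 31902 and 103549.8 on lane 2, and 42338 and 83522 on lane 5. Both LKB1 libraries exceeded both controls in each line, though the T98 values stayed far below those of U87. The TNC effect was 1.36 in T98 (SE 0.21, adjusted p = 0.0109; 1.71 and 1.01 by lane) and 1.34 in U87 (SE 0.21, adjusted p = 0.00926; 1.70 and 0.98 by lane). Their difference was 0.02 (95% interval −0.69 to 0.73, adjusted p = 0.981).

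FN1 (NM_212478, chr2:216225179-216300791, minus strand, hg19) encodes the main ligand of the alpha 5 beta 1 receptor. In U87 it measured 111666 with control and 228078 with LKB1 siRNA on lane 2, and 108141 and 236981 on lane 5. T98 gave 37422 and 25151 on lane 2, and 79985 and 67974 on lane 4. The U87 groups were far apart and close within each group, whereas the T98 groups overlapped and differed more by lane than by siRNA. FN1 rose by 1.08 on the log2 scale in U87 (SE 0.15, adjusted p = 0.00546) and was −0.40 in T98 (SE 0.15, adjusted p = 0.102). The test of the difference, T98 minus U87, gave −1.49 (SE 0.21, adjusted p = 0.0439). It was lost at a pseudocount of 0.5 (adjusted p = 0.0521) and without any 1 library other than the T98 lane 4 pair. Vitronectin, a plasma and matrix ligand of alpha V integrins, rested on 4 to 22 reads per library, and its effects of 1.05 in both lines did not pass (adjusted p = 0.156 and 0.197).

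**Figure D2:**
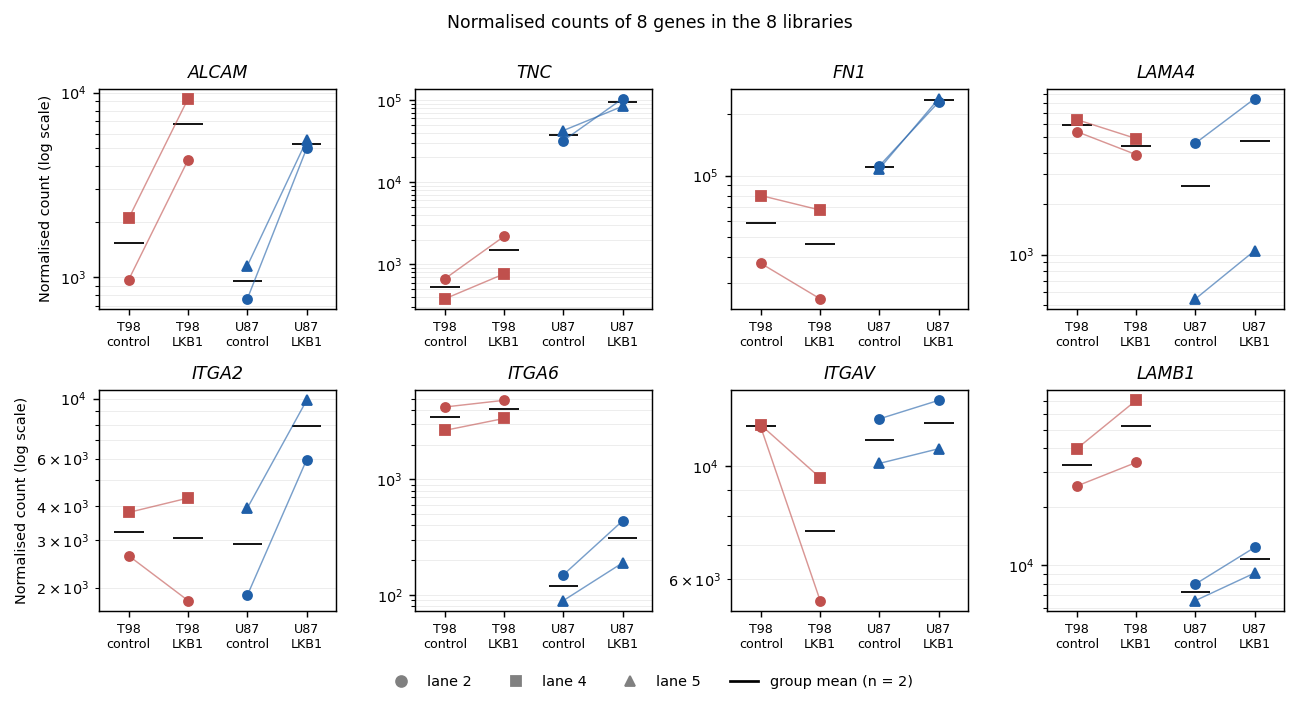
Normalised counts (log scale) of 8 genes in every library, with lines joining the control and LKB1 siRNA library of a lane, symbols for the lane and black bars for the mean of each group of 2. ALCAM and TNC slope upward in both lines, FN1, LAMA4, ITGA2 and ITGA6 slope upward in U87, ITGAV slopes downward in T98, and LAMB1 slopes upward in both.

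Of 11 laminin chains tested, 4 rose (36.36%, against 8.48% of all genes tested) and 1 fell (9.09% against 7.33%) in T98. In U87, 2 rose (18.18% against 5.29%) and 0 fell, where 5.91% of all genes did. The alpha 4 chain LAMA4, which belongs to laminins of vessel and mesenchymal basement membranes, went opposite ways. LAMA4 (NM_001105207, chr6:112429134-112575917, minus strand, hg19) measured 5390 with control and 3935 with LKB1 siRNA on lane 2 of T98, and 6357 and 4902 on lane 4. In U87 it measured 4606 and 8479 on lane 2 but 546 and 1057 on lane 5. The lanes of U87 differed more than the siRNAs did, so the U87 groups overlapped, while the change within each lane was alike (0.88 and 0.95). LAMA4 rose by 0.92 in U87 (SE 0.11, adjusted p = 0.00396) and fell by 0.41 in T98 (SE 0.11, adjusted p = 0.0481). The difference was −1.33 (SE 0.16, adjusted p = 0.0352). The T98 call was lost when any 1 of the 8 libraries was left out (adjusted p from 0.0526 to 0.223) and at a pseudocount of 0.5.

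LAMB1, the beta 1 chain shared by many laminins, rose in both lines. It measured 25557 with control and 33811 with LKB1 siRNA on lane 2 of T98, and 39845 and 70734 on lane 4. U87 gave 7973 and 12325 on lane 2, and 6550 and 9090.2 on lane 5. In U87 the LKB1 libraries lay above the controls, and in T98 the groups overlapped across lanes. The log2 effects of LAMB1 were 0.62 in T98 (SE 0.14, adjusted p = 0.0295) and 0.55 in U87 (SE 0.14, adjusted p = 0.0476). Leaving out any 1 of the 8 libraries ended the T98 call, with adjusted p between 0.0524 and 0.161. The U87 call was lost without any 1 U87 library, at a pseudocount of 0.5, under quantile normalisation and with voom on recovered reads.

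The beta 2 chain LAMB2 rose in T98, from 1060 to 1506 on lane 2 and from 2331 to 2977 on lane 4 (log2 0.43, SE 0.12, adjusted p = 0.0449), and this call was lost under TMM scaling. In U87, LAMB2 was 0.32 (SE 0.12, adjusted p = 0.119). LAMA5, the alpha chain of adult basement membranes, rose in T98 from 25.8 to 46.0 on lane 2 and from 77.0 to 135.2 on lane 4. These are low values, with 24 to 145 reads, and the call (log2 0.81, SE 0.17, adjusted p = 0.0225) was lost with voom. The gamma 1 chain LAMC1, common to most laminins, was −0.49 in T98 (adjusted p = 0.0611) and −0.09 in U87 (adjusted p = 0.736). LAMA1, LAMA2, LAMA3, LAMB3 and LAMB4 passed in neither line.

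Of 17 integrin alpha chains tested, 5 rose in U87 (29.41%, against 5.29% of all genes tested) and 0 fell, where 5.91% of all genes did. In T98, 1 rose and 1 fell (5.88% each, against 8.48% and 7.33%). The U87 rises included 3 of the 4 collagen-binding chains. ITGA2 (NM_002203, chr5:52285156-52390609, plus strand, hg19), whose product forms the alpha 2 beta 1 collagen receptor, measured 1873 with control and 5940.4 with LKB1 siRNA on lane 2 of U87, and 3936 and 9852 on lane 5. T98 gave 2621 and 1791 on lane 2, and 3794 and 4287 on lane 4. The U87 groups did not overlap, and the T98 lanes had opposite signs. ITGA2 rose by 1.49 in U87 (SE 0.18, adjusted p = 0.00392) and was −0.19 in T98 (SE 0.18, adjusted p = 0.509). The difference of −1.68 (SE 0.26) narrowly missed the threshold (adjusted p = 0.0514).

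ITGA11, a receptor chain for fibrillar collagen, measured 188.1 with control and 431.8 with LKB1 siRNA on lane 2 of U87, and 801 and 1241 on lane 5. It rose on both lanes (log2 0.91, SE 0.17, adjusted p = 0.0149), although the groups overlapped across lanes. ITGA10, another collagen-binding chain, went from 33.9 to 125.6 on lane 2 of U87 and from 52.6 to 93.9 on lane 5 (log2 1.34, SE 0.32, adjusted p = 0.0375). Its 32 to 111 reads in U87 come from a span that the listed spans of PPIAL4A, PPIAL4B and PPIAL4C cover on the opposite strand. Only spans were compared, so whether these genes share exons with ITGA10 is not known here. The reads carry no strand, so reads of a shared exon could not be told apart. In T98 the effects were −0.07 for ITGA11 (adjusted p = 0.798) and 0.11 for ITGA10 (adjusted p = 0.845). ITGA1, the fourth collagen-binding chain, passed in neither line (−0.10 in T98 and −0.05 in U87). PELO overlaps 14316 bases of the ITGA1 span on the same strand, and its part in the ITGA1 reads was not tested.

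Of the 3 laminin-binding alpha chains, ITGA6 rose in U87. Its product pairs with beta 1 or beta 4. ITGA6 (NM_000210, chr2:173292314-173371181, plus strand, hg19) measured 149.8 with control and 439.2 with LKB1 siRNA on lane 2 of U87, and 89.7 and 190.2 on lane 5. T98 held far more, 4230 and 4832 on lane 2, and 2655 and 3368 on lane 4. The effect was 1.31 in U87 (SE 0.16, adjusted p = 0.0038) and 0.27 in T98 (SE 0.16, adjusted p = 0.273), and the difference of −1.04 did not pass (adjusted p = 0.102). ITGA7 in U87 was 0.67 (SE 0.18, adjusted p = 0.0505), just short of the threshold, and ITGA3, the alpha 3 chain, was 0.05 in T98 and 0.07 in U87.

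Among the chains whose receptors bind the Arg-Gly-Asp motif of fibronectin and vitronectin, ITGAV fell in T98. ITGAV (NM_002210, chr2:187454790-187545628, plus strand, hg19) encodes the alpha V chain shared by several receptors. On lane 2 of T98 it measured 11924 with control and 5447 with LKB1 siRNA, and on lane 4 12049 and 9490.5. The controls were close together, and the LKB1 libraries differed but both lay below them. ITGAV fell by 0.74 on the log2 scale (SE 0.18, adjusted p = 0.0358), with −1.13 on lane 2 and −0.34 on lane 4. U87 gave 12391 and 13474 on lane 2 and 10130 and 10825 on lane 5 (log2 0.11, adjusted p = 0.746), and the difference of −0.85 did not pass (adjusted p = 0.206). ITGA5, the alpha chain of the classical fibronectin receptor, was 0.49 in U87 (SE 0.14, adjusted p = 0.0613) and 0.30 in T98 (adjusted p = 0.157).

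Of 5 alpha chains typical of leukocytes, 1 rose in each line (20%, against 8.48% of all genes tested in T98 and 5.29% in U87). In both lines 0 fell, where 7.33% of all genes fell in T98 and 5.91% in U87. ITGAX, which forms a complement receptor with beta 2, measured 792 with control and 1461 with LKB1 siRNA on lane 2 of U87, and 1328 and 2008 on lane 5 (log2 0.74, SE 0.17, adjusted p = 0.0305). The beta 2 chain ITGB2 had only 1 to 12 reads per library in U87. In T98 the values lay between 296.5 and 549.8, with an effect of −0.25 (adjusted p = 0.332). ITGAL, the LFA-1 alpha chain, rested on 1 and 5 reads in the T98 controls and 3 and 24 reads with LKB1 siRNA, so its call in T98 (log2 1.59, SE 0.38, adjusted p = 0.0329) is rough. It was lost at a pseudocount of 5, with voom and without any 1 library. Among leukocyte markers, PTPRC and CD3E were under 10 in every library. CD68 ranged from 538 to 1125 in T98 and from 12020 to 22934 in U87, and the summed level of the 7 leukocyte markers was 809.3 to 1473 in T98 controls, 930.0 to 1290.3 with LKB1 siRNA in T98, 12105 to 19614 in U87 controls and 12986 to 23109 with LKB1 siRNA in U87. CD68 was the most abundant of them in every library but that of LKB1 siRNA on lane 4 of T98, where CORO1A was. Of 4 leukocyte markers tested, 1 was called higher and 1 lower in T98 (25% each, against 8.48% and 7.33% of all genes tested). CORO1A in T98 went from 77.0 to 351.3 on lane 2 and from 328.7 to 654.6 on lane 4. The part of these markers in the levels above was not tested.

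Of 7 beta chains tested, 1 rose in each line (14.29%, against 8.48% of all genes tested in T98 and 5.29% in U87). In both lines 0 fell, where 7.33% of all genes fell in T98 and 5.91% in U87. ITGB1, the partner of most alpha chains listed here, passed in neither line. It measured 29700 with control and 23417 with LKB1 siRNA on lane 2 of T98, and 23270.2 and 20266 on lane 4 (log2 −0.27, SE 0.13, adjusted p = 0.172). In U87 it measured 81462 and 91234 on lane 2, and 64622 and 73136 on lane 5 (log2 0.17, SE 0.13, adjusted p = 0.431). ITGB5, which pairs with alpha V, rose in T98 from 3784 to 6347 on lane 2 and from 5088 to 7012 on lane 4, where both LKB1 libraries exceeded both controls (log2 0.60, SE 0.13, adjusted p = 0.0233). In U87, ITGB5 was 0.06 (adjusted p = 0.792). ITGB8, another alpha V partner, rose in U87 from 36.0 to 52.9 on lane 2 and from 84.1 to 264.2 on lane 5 (log2 1.09, SE 0.27, adjusted p = 0.0434), on 34 to 311 reads. Its 2 lanes differed in size, at 0.54 and 1.64, and T98 gave −0.18 (adjusted p = 0.667). ITGB3 was 0.74 in U87 (SE 0.19, adjusted p = 0.0516). ITGB2, the leukocyte beta chain, had 161 and 12 reads in the T98 controls and 19 and 6 reads with LKB1 siRNA (log2 −1.93, SE 0.55, adjusted p = 0.0534). In U87 it had 8 reads with control and 1 with LKB1 siRNA on lane 2, and 12 and 6 on lane 5 (log2 −1.45, SE 0.55, adjusted p = 0.139).

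Of the 17 genes called in either line, ALCAM, TNC and LAMB1 were called higher in both. Among all tested genes with a 3′ untranslated region, 392 were called higher in both and the other 12885 were not. The share of all genes called in either line is not given here. In the direct test of the difference between the lines, 0 of 39 genes were higher in T98 (0.371% of all genes tested) and 2 lower (0.105%), LAMA4 and FN1. At an unadjusted p under 0.05 there were 16, and voom on recovered reads called 0 higher and 3 lower. The calls rested on the lane term. Without it, 0 of the 39 passed in either line or for the difference, where 4 genes were higher and 0 lower in T98 over all 14282 (0.028% and 0.0%), 4 higher and 4 lower in U87 (0.028% each) and 0 either way for the difference. At an unadjusted p under 0.05, that fit had 5 of the 39 in T98, 6 in U87 and 3 for the difference. The 11 U87 calls were all lost without any 1 U87 library, when the spread comes from T98 alone. The 10 T98 calls fell to 1, ALCAM, without either T98 lane 2 library or either U87 lane 5 library and to 0 without either U87 lane 2 library, and were 15 without either T98 lane 4 library. Difference calls became 0 without any library but the T98 lane 4 pair, and 7 and 6 without the LKB1 and control library of that pair.

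The next comparison set the control siRNA libraries of the lines against each other, without a lane term. It called 7 of the 39 genes higher in T98 (17.95%, against 18.3% of all genes tested) and 13 lower (33.33% against 19.5%). Both T98 controls lay above both U87 controls for 11 genes (35.7% of all genes tested did so) and below for 18 (35.9%). With a lane term the counts were 13 and 20, against 32.9% and 33.6% of all genes. The controls enter both these values and the knockdown effects, so the 2 kinds of comparison are not independent.

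Higher in T98 were 4 alpha chains, 1 beta chain and 2 laminin chains. ITGA8, an Arg-Gly-Asp-binding chain, had 803 on lane 2 and 3730.4 on lane 4 of T98, against 0 and 3 reads in the U87 controls. The ratio of summed reads at equal library size was 1563.25 (95% counting interval 534.6 to 7583.1). This interval holds counting error alone and leaves out the spread between libraries of a group. The fitted log2 difference of 9.77 (adjusted p = 0.000948) depends on the pseudocount, and the call was lost with voom (adjusted p = 0.0992). LAMB4 measured 371 and 535.5 in T98 against 5.26 and 2.84 in U87 (log2 6.51, SE 0.63, adjusted p = 0.000307), on 5 and 3 reads in U87. ITGA4, which forms the VCAM-1 and fibronectin receptor with beta 1, measured 1901 and 2958 in T98 against 13.9 and 376.4 in U87. CERKL overlaps 1067 bases of its span on the opposite strand, and its part in these unstranded reads was not tested. The 2 U87 controls of ITGA4 were far apart, and its call (log2 4.98, SE 1.57, adjusted p = 0.0403) was lost without any 1 T98 library or the U87 lane 2 control (adjusted p up to 0.184, with a value of 2.65 without the latter).

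ITGA6 measured 4230 and 2655 in T98 against 149.8 and 89.7 in U87 (log2 4.84, SE 0.46, adjusted p = 0.000292), and ITGB8 639.7 and 1376 against 36.0 and 84.1 (log2 4.06, SE 0.86, adjusted p = 0.00919). The ITGB8 call was lost without the T98 lane 4 control (adjusted p = 0.0528) or the U87 lane 2 control (adjusted p = 0.0518). LAMB1 (2.14) and ITGAM (2.06) were also higher in T98.

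Lower in T98 were 6 alpha chains, 2 beta chains, 4 laminin chains and tenascin-C. ITGA7, the muscle laminin receptor chain, measured 21.4 and 28.5 in T98 against 4158 and 1839 in U87 (log2 −6.75, SE 0.48, adjusted p = 0.000104). TNC measured 665 and 379.7 in T98 against 31902 and 42338 in U87 (log2 −6.19, SE 0.49, adjusted p = 0.000137). LAMA1, the alpha chain of early basement membranes, measured 3.30 and 14.3 in T98 against 330.6 and 798 in U87 (log2 −5.99, SE 0.80, adjusted p = 0.00127). LAMA5 measured 25.8 and 77.0 in T98 against 1631 and 4367 in U87 (log2 −5.87, SE 0.76, adjusted p = 0.00109). These 4 kept their call under every alternative and every left-out library that was run. ITGAL measured 1.11 and 4.78 against 59.1 and 64.9 (log2 −4.17, adjusted p = 0.00885), a call lost without the T98 lane 2 control (adjusted p = 0.0548).

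Among the other genes lower in T98, ITGA5 was −3.46 (SE 0.21, adjusted p = 6.39e-05), ITGA3 −2.46, ITGB3 −2.19 and ITGB1 −1.46 (SE 0.25, adjusted p = 0.00398). ITGAD was −2.49, LAMB2 −2.04 and ITGAX −1.33. The ITGA3 call was lost without the T98 lane 4 control or either U87 control, those of ITGAD and LAMB2 without either lane 2 control, that of ITGAX without the T98 lane 2 or U87 lane 5 control, and that of ITGAM without the T98 lane 4 or U87 lane 5 control (adjusted p up to 0.165). With no filter on low values, the calls of ITGA3, ITGA4, ITGAX and LAMB2 were lost (adjusted p from 0.0563 to 0.129). FN1 was below in both T98 controls, but its −1.01 did not pass (SE 0.52, adjusted p = 0.165). ALCAM was 0.60 (adjusted p = 0.332) and LAMC1 −0.03 (adjusted p = 0.934).

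**Figure D3:**
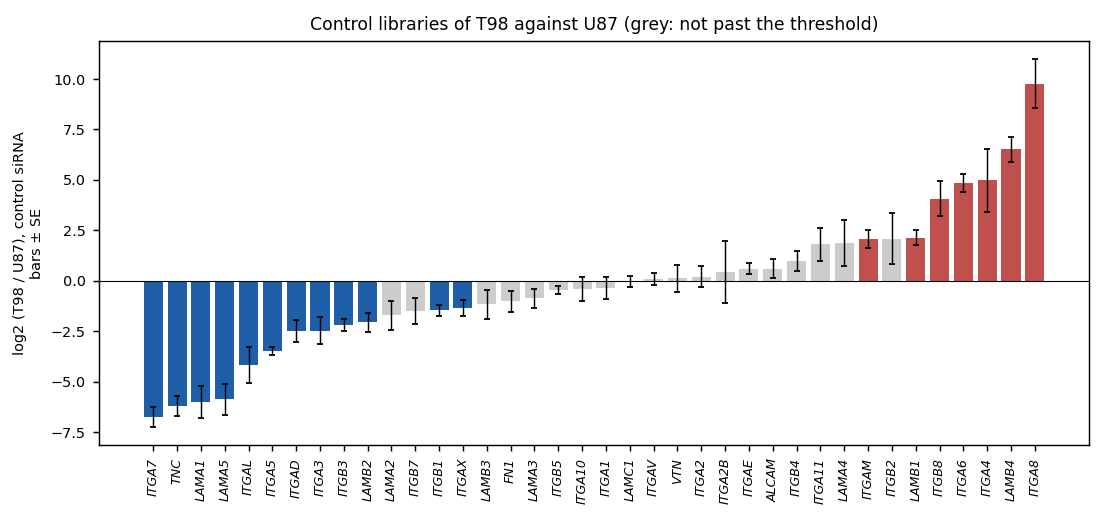
Fitted log2 difference between the T98 and U87 control siRNA libraries for 38 of the tested genes, with bars of 1 SE, in order of size; coloured bars passed the threshold and grey ones did not. ITGA8 stands at 9.77 on the right and ITGA7 at −6.75 on the left, and LAMC1 and ITGAV lie near 0.

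Per kilobase of transcript, the control libraries held the genes at very different levels. In U87 the highest were ITGB1 (19840 and 15740 normalised counts per kilobase on lanes 2 and 5), FN1 (12380 and 11990) and ITGA5 (11340 and 13260), and FN1 and ITGA5 overlapped. ITGA3 followed at 6300 and 8458, and TNC at 3697 and 4907. In T98 FN1 (4148 and 8867 on lanes 2 and 4), ITGB1 (7235 and 5669) and LAMB1 (4346 and 6776) overlapped at the top, and LAMC1 lay at 2580 and 2040. LAMB1 was the highest laminin chain in T98 and LAMC1 in U87, where it lay at 1912 and 2870 against 1356 and 1114 for LAMB1.

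**Figure D4:**
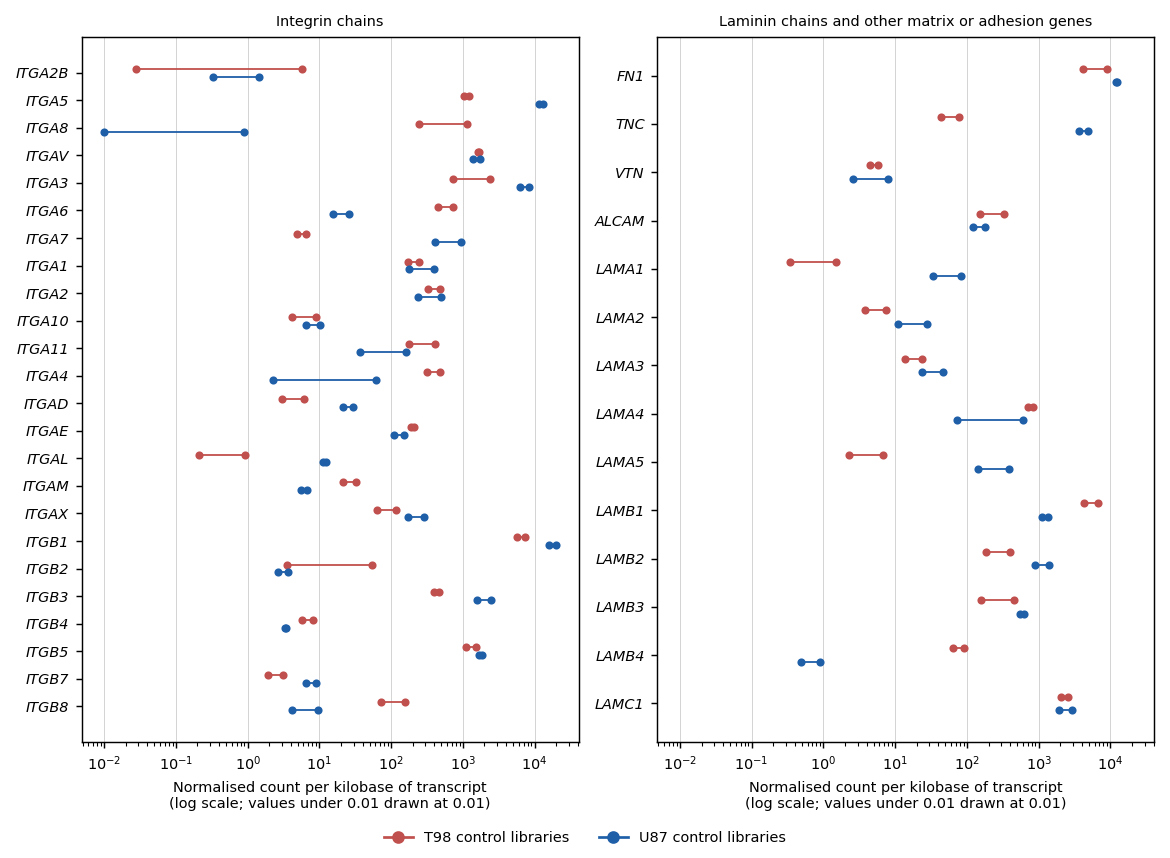
Normalised counts per kilobase of transcript (log scale) of 38 of the tested genes in the control libraries of T98 (red) and U87 (blue), 1 point per library joined by a line. ITGA5, TNC and ITGA7 lie to the right in U87, ITGA6, LAMB4 and ITGA8 lie to the right in T98, and ITGA4 and LAMA4 show widely spaced U87 points.

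Genes acting with these receptors were read from 4 further lists with the lane term. Without that term, 0 of 14282 genes were lower in T98, so the T98 falls named below were not called in that fit. How the calls of these lists fared under the other alternatives is not given here. Over all genes tested, 8.48% rose and 7.33% fell in T98, and 5.29% rose and 5.91% fell in U87. Of 11 other basement membrane genes tested, 3 rose (27.27%) and 2 fell (18.18%) in T98, and 2 rose (18.18%) and 1 fell (9.09%) in U87. NID1, which links laminin to collagen IV, rose by 1.63 in T98 (SE 0.18, adjusted p = 0.00476) and by 1.37 in U87 (adjusted p = 0.00451), and the proteoglycan AGRN rose by 0.60 in T98 (adjusted p = 0.0164). The perlecan gene HSPG2 rose by 0.90 in U87 (adjusted p = 0.0282). The collagen IV chain COL4A1 fell by 1.35 in T98 (adjusted p = 0.011) and by 0.93 in U87 (adjusted p = 0.0333), and the netrin NTN4 fell by 0.81 in T98 (adjusted p = 0.0427). Among 16 other integrin ligands tested, 1 rose and 4 fell in T98, and 4 rose and 2 fell in U87. EDIL3, an Arg-Gly-Asp ligand, rose by 1.28 in T98 (adjusted p = 0.00565) and by 1.67 in U87 (adjusted p = 0.00195), and the microfibril gene FBN1 rose by 0.89 in U87 (adjusted p = 0.018). The matricellular gene CYR61 fell by 1.44 in T98 (adjusted p = 0.00655) and by 1.12 in U87 (adjusted p = 0.0101). CTGF, of the same family, fell by 0.64 in T98 (adjusted p = 0.0229) and by 0.69 in U87 (adjusted p = 0.0187), and osteopontin, SPP1, fell by 0.88 in T98 (adjusted p = 0.013). The groups overlapped across lanes for NID1 in U87 and for CYR61 and CTGF in T98.

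Of 15 other matrix receptors, 4 rose and 3 fell in T98, and 0 rose and 1 fell in U87. CD47, an integrin-associated thrombospondin receptor, fell by 0.62 in T98 (adjusted p = 0.0162) and by 0.98 in U87 (adjusted p = 0.00352). In T98 the syndecan SDC2 rose by 1.04 (adjusted p = 0.0119) and RPSA, a ribosomal protein also described as a laminin receptor, by 1.37 (adjusted p = 0.0145), and SDC4 fell by 0.65 (adjusted p = 0.0177). RPSA has many processed copies in the genome, so its reads are uncertain. Among 21 genes of integrin activation and signalling, 1 rose (4.76%) and 2 fell (9.52%) in T98, and 1 rose and 1 fell (4.76% each) in U87. These shares lie near those of all genes tested, 8.48% and 7.33% in T98 and 5.29% and 5.91% in U87. Kindlin-2, FERMT2, which activates integrins by binding the beta chain tail, fell by 1.58 in T98 (SE 0.24, adjusted p = 0.00942) and by 1.80 in U87 (SE 0.24, adjusted p = 0.00461). FERMT3 fell by 0.70 (adjusted p = 0.0325) and the kinase FYN rose by 0.78 (adjusted p = 0.0143) in T98, and the parvin PARVB rose by 0.53 in U87 (adjusted p = 0.0447). In the control libraries, compared without a lane term, 0 of the 21 were higher in T98, where 18.3% of all genes tested were. In the same comparison 10 were lower in T98 (47.62% against 19.5%).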

How the data were processed

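RNA sequencing of 8 libraries was analysed from 1 deposited table. Per the submitters' processing notes, the authors used TopHat2 2.0.8b, edgeR and build hg19 (GRCh37). The read counter was not given in the sources used here, nor was the annotation. The values are a normalised signal per transcript, deposited by the authors. They matched reads moved to a common library size with a dispersion of 0.06803, and inverting this gave whole reads (within 0.05) for 100% of values. Genes at 10 or more in at least 2 libraries were tested with limma-trend in limma 3.58.1 under R 4.3.3, on log2(value + 1), all 8 libraries, two-sided, with Benjamini-Hochberg adjustment over 14282 genes and a threshold of 0.05. Knockdown tests held a lane term per line (2 residual degrees of freedom), and the line comparison held none (4). The lane, from the column names, pairs libraries: lane differences correlated at 0.717 (T98) and 0.809 (U87) between groups of 1 line and at 0.124 to 0.177 between lines. Symbols with several transcripts kept the highest. Sequences came from RefSeq (GRCh38.p14) and GENCODE. Scripts were tested on simulated data. The genes, lists and the lane term were chosen with earlier results of these data known. Libraries' values were given for STK11, each gene called in a knockdown test, the 5 largest rises and falls between lines, FN1, ITGB1 and ALCAM. Effects were given for up to 2 risen and 2 fallen genes per further list. Alternatives were no lane term, pseudocounts of 0.5 and 5, other filters, TMM and quantile scaling, voom, and leaving out each library. A gene that met these rules and is in the counts is not reported here by name, nor is a marker.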

Additional observations from a re-analysis of the deposited data

Results flagged for a closer look

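Among the genes described, 2 differed between the lines in their response to LKB1 siRNA by the direct test of that difference. The T98 effect minus the U87 effect on the log2 scale was −1.49 for FN1 (SE 0.21, adjusted p = 0.0439 with limma-trend) and −1.33 for LAMA4 (SE 0.16, adjusted p = 0.0352). The FN1 call was lost at a pseudocount of 0.5 (adjusted p = 0.0521) and the LAMA4 call was kept (adjusted p = 0.0418). Both were lost without the lane term, with no filter on low values, and without any 1 library other than the T98 lane 4 pair. In both lanes of each line the FN1 and LAMA4 effects were negative in T98 and positive in U87.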

How the results depend on the processing

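No call changed direction under any alternative run. Without the lane term (no replicate block), calls among the 39 genes became 0 in T98 (10 with it), 0 in U87 (11) and 0 for the difference (2). With the replicate block, calls between the lines became 33 (20 without it). With no filter on low values, the knockdown calls and difference calls were all 0, and calls between the lines were 16. A pseudocount of 0.5 left 1 difference call, LAMA4. Leaving out 1 library gave 0 to 15 calls in T98, 0 to 15 in U87, 0 to 7 for the difference and 15 to 20 between the lines. In a knockdown fit with a library left out, 1 line supplies all of the spread, and the effect of the shortened line is that of its remaining lane. Other pseudocounts, filters and scalings and voom on recovered reads, the last chosen after seeing the data, stayed within 1.5 times of the counts. The planned edgeR and DESeq2 fits were not run, because a separate check for whole reads in the deposited values did not accept every library. The read counts quoted and voom rest on the inversion alone. Few reads limit ITGAL, ITGB2, ITGA2B, VTN and the U87 levels of ITGA8 and LAMB4.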
